A study of Homo sapiens with 9 samples.

Results

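The genes described here make cholesterol and fatty acids, or regulate that synthesis. They are a list of 37 genes chosen by function: 19 enzymes of sterol synthesis in pathway order, 6 genes of sterol sensing and transport, and 12 genes of fatty acid synthesis, desaturation, elongation and activation. A gene was read where a probe set carried its symbol and no other. This held for 32 of the 37 members, among 11963 genes with such a probe set on the array. The 32 were 17 sterol enzymes, 5 regulators and 10 fatty acid genes. CYP51A1 and FADS1 had only probe sets that share a second symbol, and FDFT1, STARD4 and ACSL3 were unnamed in the annotation used here, so these 5 were not analysed. For a gene with several probe sets, the one with the highest mean over the 9 arrays stands for it.

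RNA from MDA-MB-231, an established line of human breast cancer cells that lack hormone receptors and HER2 amplification, was labelled and hybridised to 9 Affymetrix arrays, which read the 3′ part of transcripts. All cells had been stably transduced with a lentiviral pLKO vector and grown in DMEM with 10% fetal bovine serum. One line carried a control hairpin (scramble), and the others carried a hairpin against Coco, shRNA #2 (shco2) or shRNA #4 (shco4), with 3 biological replicates per line. Coco, the product of DAND5, is secreted and keeps BMP and Nodal ligands from their receptors. 0 probe sets carried the symbol DAND5, so how far Coco itself was reduced could not be read here. Whether a line was a clone or a pool is not given in the sources used here, and the p-values measure the spread between the 3 samples of a line. The 2 comparisons with scramble use the same scramble arrays, and the comparison of shco4 with shco2 sets the hairpin lines directly against each other. A blocked fit, which adds the replicate number as a term, is quoted where it moves a member's call across the threshold.

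Cells build cholesterol from acetyl-CoA through mevalonate, the isoprenoid diphosphates, squalene and lanosterol. The transcription factors SREBP-1 and SREBP-2, products of SREBF1 and SREBF2, are held in the endoplasmic reticulum with SCAP by the INSIG proteins when sterols are plentiful. When sterols are scarce they are cut free and switch on their targets, SREBP-2 mainly genes of sterol synthesis and SREBP-1 mainly genes of fatty acid synthesis. SREBP promoter sites commonly lie near sites for NF-Y, which binds CCAAT, and for Sp1.

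The arrays were close in brightness, with medians from 122.5 to 129.6 in the authors' scaled units. The ratio of 3′ to 5′ signal for ACTB, a sign of RNA integrity, was 1.07 to 1.10 in scramble, 1.08 to 1.11 with shco2 and 1.12 to 1.14 with shco4. For GAPDH the ratio overlapped between the lines, at 0.868 to 0.958, 0.878 to 0.939 and 0.882 to 0.904. For 7 markers of MDA-MB-231 that were read, the summed intensity was 42760 to 45130 in scramble, 24120 to 24630 with shco2 and 45750 to 47420 with shco4. Of the 7, 6 passed as lower with shco2 than in scramble, where 9.95% of all probe sets were called lower, and SPARC was dim in all 3 lines. Of 8 luminal breast markers, 4 lay below a mean log2 intensity of 6, and their sum was 1418 to 1499, 1179 to 1190 and 1115 to 1293. For 8 fibroblast markers the sum was 290.4 to 373.5, 304.5 to 358.4 and 503.1 to 607.6, and for 6 adipocyte markers 156.2 to 193.3, 207.8 to 237.7 and 182.2 to 269.2. For 4 leukocyte markers it was 257 to 400.4, 124.1 to 176.8 and 463.3 to 1042. At or under the minimum of 16 to which values were raised, on all 9 arrays, were 2 luminal markers, 1 fibroblast marker, 1 adipocyte marker and 0 leukocyte markers. LUM and CD14 were the fibroblast and leukocyte markers that passed as higher with shco4 than in scramble. HLA-DRA, another leukocyte marker, had means of 232 in scramble, 33 with shco2 and 596 with shco4, and passed as lower with shco2. Of the luminal markers, CDH1 passed as lower with shco2. With shco4, ESR1 passed as higher, and ERBB3 and EPCAM as lower, than in scramble, where 9.05% of all probe sets were called higher and 9.75% lower. The ESR1 probe set was dim, with means of 25 in scramble and 44 with shco4 and a mean log2 intensity of 5.0. The part of these marker and RNA quality values in the results below was not tested.

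The sterol enzymes were called in different numbers and directions in the 2 hairpin lines. With shco4, 7 of 17 sterol enzymes rose against scramble and 1 fell, and with shco2, 1 rose and 4 fell. Calls are those of limma with a Benjamini-Hochberg adjusted p under 0.05. Of the 22215 probe sets tested, 9.05% were called higher and 9.75% lower with shco4, and 10.7% higher and 9.95% lower with shco2. Of the 11963 genes at their brightest probe set, 1276 were called higher and 1380 lower with shco4, and 1595 higher and 1310 lower with shco2. Between the lines, 13 of 17 sterol enzymes were higher with shco4 than with shco2 and 2 were lower, where 14.9% of probe sets were called higher and 16.1% lower, and 1919 and 2313 of the 11963 genes. The median log2 difference of the 17 was -0.19 with shco2, 0.63 with shco4 and 0.82 between them, and the median of all genes was 0 in each comparison. In such bulk RNA, fewer cells expressing a gene and less of its RNA per cell cannot be told apart. With shco4 the count of rises was 4 without scramble replicate 1, scramble replicate 2 or shco4 replicate 3. With shco2 the count of falls was 2 without scramble replicate 1, any shco2 replicate or shco4 replicate 2.

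**Figure D1:**
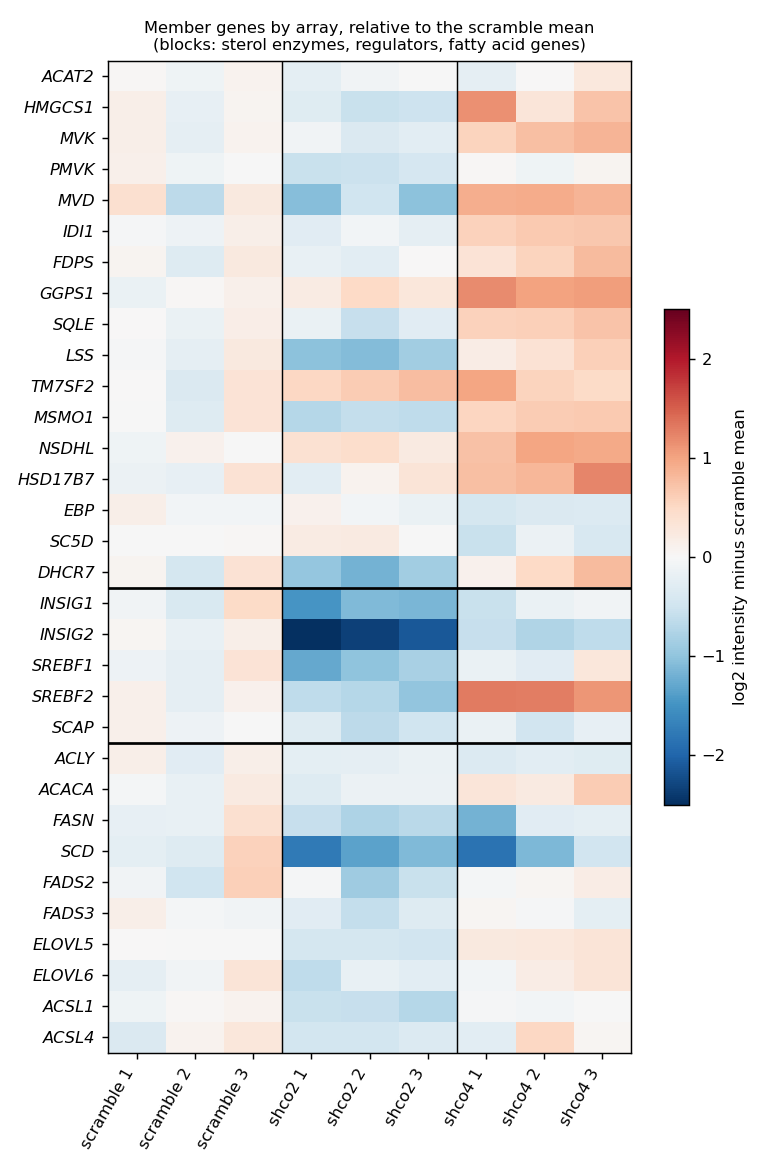
Log2 intensity of the 32 members on each of the 9 arrays, minus the mean of the 3 scramble arrays of that gene, in pathway order. Colour runs from blue (lower) to red (higher). Most sterol enzymes are red on the shco4 arrays, the 5 regulators are blue on the shco2 arrays, and INSIG2 is the bluest row there, with a log2 difference of -2.32 against scramble.

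The 3 members called in opposite directions by the 2 hairpins were SREBF2, MSMO1 and ELOVL5. The 250 bases before the gene start of these genes are printed here from RefSeq (GRCh38.p14), 5′ to 3′ on the gene's strand, with those of EBP, a sterol enzyme that fell with shco4, and INSIG2, the member with the largest fall. Capitals mark the sterol regulatory element core TCACNCCAC and CCAAT, on either strand, so that TCACCCCAC, CCAAT and its reverse complement ATTGG stand out.
SREBF2 (chr22:41832855-41833104, plus strand): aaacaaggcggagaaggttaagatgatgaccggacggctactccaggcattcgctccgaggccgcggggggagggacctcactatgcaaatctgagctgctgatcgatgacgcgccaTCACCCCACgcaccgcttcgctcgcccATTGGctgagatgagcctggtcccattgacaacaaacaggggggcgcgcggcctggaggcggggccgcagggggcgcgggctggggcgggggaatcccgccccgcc
MSMO1 (chr4:165327419-165327668, plus strand): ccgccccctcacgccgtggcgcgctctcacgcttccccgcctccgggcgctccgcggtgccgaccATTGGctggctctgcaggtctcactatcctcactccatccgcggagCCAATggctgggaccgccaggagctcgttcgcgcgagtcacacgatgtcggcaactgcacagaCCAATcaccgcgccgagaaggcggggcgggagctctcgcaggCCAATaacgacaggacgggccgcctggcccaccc
ELOVL5 (chr6:53348951-53349200, minus strand): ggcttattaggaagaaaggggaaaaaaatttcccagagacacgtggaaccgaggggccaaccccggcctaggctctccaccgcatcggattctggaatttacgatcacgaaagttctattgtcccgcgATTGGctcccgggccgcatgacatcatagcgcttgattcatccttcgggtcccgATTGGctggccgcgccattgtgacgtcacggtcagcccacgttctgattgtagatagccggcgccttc
EBP (chrX:48521558-48521807, plus strand): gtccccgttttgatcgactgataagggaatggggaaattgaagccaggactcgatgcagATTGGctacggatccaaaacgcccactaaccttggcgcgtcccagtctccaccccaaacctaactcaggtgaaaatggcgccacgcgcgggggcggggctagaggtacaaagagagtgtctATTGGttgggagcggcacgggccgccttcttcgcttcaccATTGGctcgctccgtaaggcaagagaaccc
INSIG2 (chr2:118088221-118088470, plus strand): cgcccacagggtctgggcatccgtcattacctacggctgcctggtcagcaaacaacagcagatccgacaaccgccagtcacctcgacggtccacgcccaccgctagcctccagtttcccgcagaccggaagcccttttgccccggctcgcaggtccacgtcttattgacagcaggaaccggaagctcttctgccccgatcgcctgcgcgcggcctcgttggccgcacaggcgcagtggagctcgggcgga

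Of these 5 genes, SREBF2 alone held the TCACNCCAC core, on the plus strand with its first base 133 bases before the start. It also held 1 CCAAT on the other strand. MSMO1 held 4 CCAAT matches, EBP 3 and ELOVL5 2, while the printed INSIG2 window, 1 of 2 for that gene, held neither motif. RefSeq windows from 250 bases before to 50 after a start were matched for 33 of the 37 members, with 49 windows in all. ACAT2, FDFT1, SQLE and FASN had no entry. A window with CCAAT on either strand was found for 14 of 16 sterol enzymes (87.5%), 3 of 6 regulators (50%) and 8 of 11 fatty acid genes (72.7%), against 39.7% of 27305 genes and 42.1% of 15843 protein-coding genes. GGGCGG, the letters that Sp1 binds, was found on either strand for 15 of 16, 6 of 6 and 10 of 11, against 48.3% of genes and 64.3% of protein-coding genes. The TCACNCCAC core was found for 2 members, SREBF2 and ACSL1, against 1.39% of genes and 1.51% of protein-coding genes. Matches of different motifs overlapped in 0 cases among the members. These are counts of letters in a window and were given no test, and genes with several windows have more chances of a match.

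The first steps join acetyl-CoA units. HMGCS1, the cytosolic synthase that makes the precursor of mevalonate (probe set 205822_s_at), had intensities of 517, 407 and 492 in scramble, 378, 317 and 327 with shco2 and 1031, 576 and 765 with shco4. All shco4 arrays were above all other arrays and were spread widely among themselves. The gene was 2.26-fold higher with shco4 than with shco2 (log2 difference 1.18 ± 0.22, SE, n = 3 per group, adjusted p = 0.0069). Against scramble its difference was 0.71 with shco4 (adjusted p = 0.068) and -0.47 with shco2 (adjusted p = 0.203). The shco4 difference passed without shco4 replicate 2 (adjusted p = 0.0235), in the blocked fit (adjusted p = 0.0238) and at probe set 221750_at (1.27, adjusted p = 0.0112). ACAT2, the cytosolic thiolase of the step before, did not pass in any comparison, with 1464 ± 101 in scramble, 1351 ± 108 with shco2 and 1501 ± 256 with shco4 (mean ± SD, n = 3).

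Mevalonate is then phosphorylated by MVK and PMVK and decarboxylated by MVD. MVK (36907_at) had intensities of 593, 457 and 572 in scramble, 506, 417 and 445 with shco2 and 793, 905 and 968 with shco4. The shco4 arrays lay above all others, while scramble and shco2 overlapped. MVK rose 1.65-fold with shco4 (log2 0.72 ± 0.13, adjusted p = 0.0119), and its other 2 probe sets rose as well (0.98 and 1.07). PMVK (203515_s_at) was called with shco2 instead. Its intensities were 489.9, 416 and 447 in scramble, 306, 310.4 and 337 with shco2 and 456, 419 and 472 with shco4, so the shco2 arrays were lowest and the other groups overlapped. PMVK fell 1.42-fold with shco2 (log2 -0.50 ± 0.075, adjusted p = 0.00527) and differed by -0.01 with shco4 (adjusted p = 1). MVD (203027_s_at) was dim, with 85.5, 41 and 76.8 in scramble, 30.8, 45.6 and 31.7 with shco2 and 121, 123 and 116 with shco4. Its shco4 arrays were above all others, and scramble replicate 2 lay within the shco2 range. Between the hairpin lines MVD was 3.38-fold higher with shco4 (adjusted p = 0.00491), a log2 difference of 1.76 that became 0.90 with a floor of 64 in place of 16. Against scramble it differed by -0.86 and 0.89 and did not pass (adjusted p = 0.0931 and 0.0886). The shco2 difference passed without scramble replicate 2 (adjusted p = 0.0123) and shrank to -0.23 with a floor of 64 (0.198). The shco4 difference was 0.68 with that floor and passed (0.00647).

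IDI1, FDPS and GGPS1 make the isoprenoid diphosphates. IDI1, the isomerase (208881_x_at), had intensities of 2574.5, 2397 and 2923 in scramble, 2162, 2499.7 and 2254 with shco2 and 3919, 4104 and 4203 with shco4. The shco4 arrays were 1.55-fold above scramble (log2 0.64 ± 0.085, adjusted p = 0.0042) and above every other array. GGPS1 makes geranylgeranyl diphosphate, used to anchor small GTPases to membranes, and stands on a branch away from sterols. It had the largest rise of the sterol enzymes with shco4, 2.12-fold (log2 1.08 ± 0.11, adjusted p = 0.00158). Its intensities (202322_s_at) were 707, 811 and 869.96 in scramble, 909, 1124 and 967 with shco2 and 1804, 1594 and 1646 with shco4, and the shco2 arrays lay above the scramble arrays without passing (0.33, adjusted p = 0.0823). FDPS, the farnesyl diphosphate synthase (201275_at), had 2246.5, 1721 and 2558 in scramble, 1895, 1791 and 2151 with shco2 and 2738, 3141 and 3693 with shco4. Its shco4 arrays were above the others, with a difference from shco2 of 0.71 ± 0.17 (adjusted p = 0.0225). That call was lost without shco2 replicate 1 (adjusted p = 0.0677), shco2 replicate 2 (0.074), shco4 replicate 2 (0.0605) or shco4 replicate 3 (0.0659). Against scramble, FDPS differed by 0.56 with shco4 (adjusted p = 0.0737, and 0.0351 in the blocked fit). Both IDI1 probe sets and that of HSD17B7 have names ending in _x_at, which the maker gives to probe sets that can bind other transcripts.

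SQLE and LSS turn squalene into lanosterol, the first sterol. SQLE, squalene epoxidase (209218_at), had 732, 648 and 818 in scramble, 653, 487 and 597 with shco2 and 1089, 1106 and 1187 with shco4. The shco4 arrays were above all others, and scramble and shco2 overlapped by 1 array. SQLE rose by 0.63 ± 0.13 with shco4 (adjusted p = 0.0181) at this probe set and by 0.73 and 0.76 at the other 2. The call at the first ended without scramble replicate 1 (adjusted p = 0.0551), scramble replicate 2 (0.0559) or shco4 replicate 3 (0.0545). LSS, lanosterol synthase (202245_at), was called with shco2 instead. Its intensities were 2414.5, 2107 and 2910.1 in scramble, 1211, 1157 and 1337 with shco2 and 2786.5, 3141 and 3703 with shco4, so that every shco2 array lay below every other array while shco4 and scramble overlapped. LSS fell 1.99-fold with shco2 (log2 -0.99 ± 0.15, adjusted p = 0.00536). With shco4 it differed from scramble by 0.38 (adjusted p = 0.142, and 0.0421 in the blocked fit). Its 2 dimmer probe sets did not pass with shco2 (-0.90 and -0.21), and 211018_at rose with shco4 (0.98, adjusted p = 0.0491). Between the hairpin lines the 3 probe sets were called higher with shco4, by 1.37, 1.55 and 1.19.

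**Figure D2:**
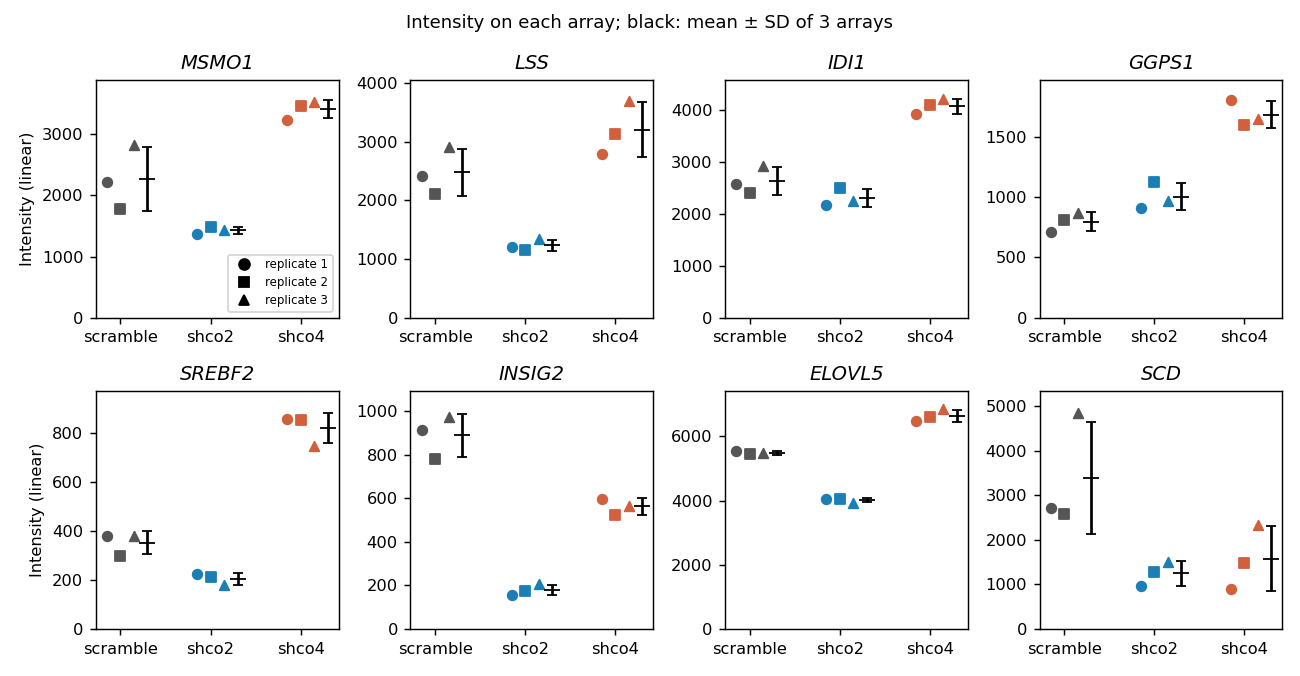
Linear intensity on each array for 8 members, by line, with a marker shape per replicate number, and the mean ± SD of 3 arrays in black. MSMO1 and SREBF2 have the shco2 arrays lowest and the shco4 arrays highest, IDI1 and GGPS1 stand apart with shco4, LSS and INSIG2 are lowest with shco2, and scramble replicate 3 is the highest SCD array at 4835.

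Lanosterol loses some of its methyl groups through MSMO1, NSDHL and HSD17B7. MSMO1, the methyl sterol oxidase (209146_at), had 2214, 1776 and 2825 in scramble, 1369, 1480.4 and 1433 with shco2 and 3242, 3463 and 3533 with shco4. The 3 lines did not overlap, with shco2 lowest and shco4 highest. MSMO1 fell 1.56-fold with shco2 (log2 -0.65 ± 0.16, adjusted p = 0.0306), rose 1.53-fold with shco4 (log2 0.61, adjusted p = 0.0394) and was 2.39-fold higher with shco4 than with shco2 (adjusted p = 0.00143). The shco4 call ended in the blocked fit (adjusted p = 0.0547) and with each array but scramble replicate 3 left out (adjusted p up to 0.103, without scramble replicate 1). The shco2 call was lost without scramble replicate 1 (0.081), shco2 replicate 1 (0.0919), 2 (0.0729) or 3 (0.0839), and likewise without shco4 replicate 2 (0.0532) or 3 (0.0505), and with only the 6 arrays compared. The difference between the hairpin lines kept its call without any single array (adjusted p up to 0.00753).

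NSDHL, the next enzyme, was the sterol enzyme called higher with both hairpins. Its intensities (209279_s_at) were 367, 428 and 396 in scramble, 514.5, 536 and 465 with shco2 and 659, 784 and 759.9 with shco4. The 3 lines did not overlap here either, but scramble was lowest. NSDHL rose 1.85-fold with shco4 (log2 0.89 ± 0.092, adjusted p = 0.00181) and 1.27-fold with shco2 (log2 0.35, adjusted p = 0.0408). The shco2 call was lost without scramble replicate 1 (0.114) or 3 (0.105), shco2 replicate 1 (0.113) or 2 (0.121), and likewise without shco4 replicate 2 (0.0514) or 3 (0.0614), and under 5 other settings. Its second probe set passed in 0 of the 3 comparisons (0.30, 0.62 and 0.32). HSD17B7, a ketoreductase of the same complex (220081_x_at), had 417, 399.9 and 593 in scramble, 385, 494 and 581 with shco2 and 776, 825 and 1075 with shco4. Its shco4 arrays were above all others and it rose by 0.93 ± 0.23 (adjusted p = 0.0328). Its shco4 call was lost without scramble replicate 1 (0.0984) or 2 (0.104), shco2 replicate 2 (0.0581), and likewise without shco4 replicate 1 (0.0574), 2 (0.0685) or 3 (0.0848), and with only the 6 arrays compared. Its difference between the hairpin lines, 0.88 (adjusted p = 0.0257), was lost without shco2 replicate 1 (0.0743) or 2 (0.0655), and likewise without shco4 replicate 2 (0.0561) or 3 (0.0745). TM7SF2, a sterol reductase of an earlier step, passed in 0 comparisons. Its means were 111 ± 26.2 in scramble, 171 ± 14.7 with shco2 and 176 ± 35.1 with shco4 (mean ± SD of 3 arrays), and all 6 hairpin arrays lay above the scramble arrays. Its differences from scramble, 0.64 and 0.68, passed only without scramble replicate 3 (adjusted p = 0.0468 and 0.0437) among the arrays left out.

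EBP and SC5D, which move and add double bonds in the sterol ring late in the pathway, were lower with shco4 than with shco2, where the other 13 called enzymes were higher. EBP (213787_s_at) had 2618.5, 2252 and 2253 in scramble, 2544, 2249.7 and 2121 with shco2 and 1758, 1851 and 1879 with shco4. The shco4 arrays lay below all others, and EBP fell 1.29-fold with shco4 (log2 -0.37 ± 0.086, adjusted p = 0.0282), as did 202735_at (-0.49, adjusted p = 0.0407), while 213789_at did not pass (-0.21, adjusted p = 0.117). The call held when shco2 replicate 1 or 3 was left out, and was lost with median centring and without any one of the remaining 7 arrays (adjusted p up to 0.0857, without shco4 replicate 1). Between the lines EBP differed by -0.33 (adjusted p = 0.0276), a call that was lost with median centring and without shco2 replicate 1 (0.0658) or 2 (0.0636), and likewise without shco4 replicate 1 (0.0848), 2 (0.0665) or 3 (0.0567). SC5D (211423_s_at) had 918, 928 and 942 in scramble, 1071, 1081 and 925 with shco2 and 629.6, 845 and 708 with shco4, again lowest with shco4. It was lower with shco4 than with shco2 by 0.50 on the log2 scale (adjusted p = 0.0153, but 0.0534 and 0.0538 without shco2 replicates 1 and 2, and the call was also lost with only the 6 arrays compared), and did not pass against scramble (adjusted p = 0.0718 with shco4, but 0.0197 without shco4 replicate 2). Its dim second probe set went the other way between the lines (1.37, adjusted p = 0.0166), so the direction for SC5D depends on the probe set.

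DHCR7, the reductase of a final step to cholesterol (201791_s_at), had 1101, 774 and 1339 in scramble, 537, 462 and 573 with shco2 and 1122, 1467 and 1806 with shco4. Every shco2 array was below every other array. DHCR7 fell 2-fold with shco2 (log2 -1.002 ± 0.25, adjusted p = 0.0336) and was 2.75-fold higher with shco4 than with shco2 (adjusted p = 0.00515). The shco2 call was lost without scramble replicate 1 (0.0953) or 3 (0.0909), shco2 replicate 1 (0.0838), 2 (0.102) or 3 (0.072), and likewise without shco4 replicate 2 (0.0574), and with only the 6 arrays compared. At its second probe set the shco2 difference was -0.55 and did not pass (adjusted p = 0.102), and the difference between the lines was 1.11 (adjusted p = 0.0057).

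**Figure D3:**
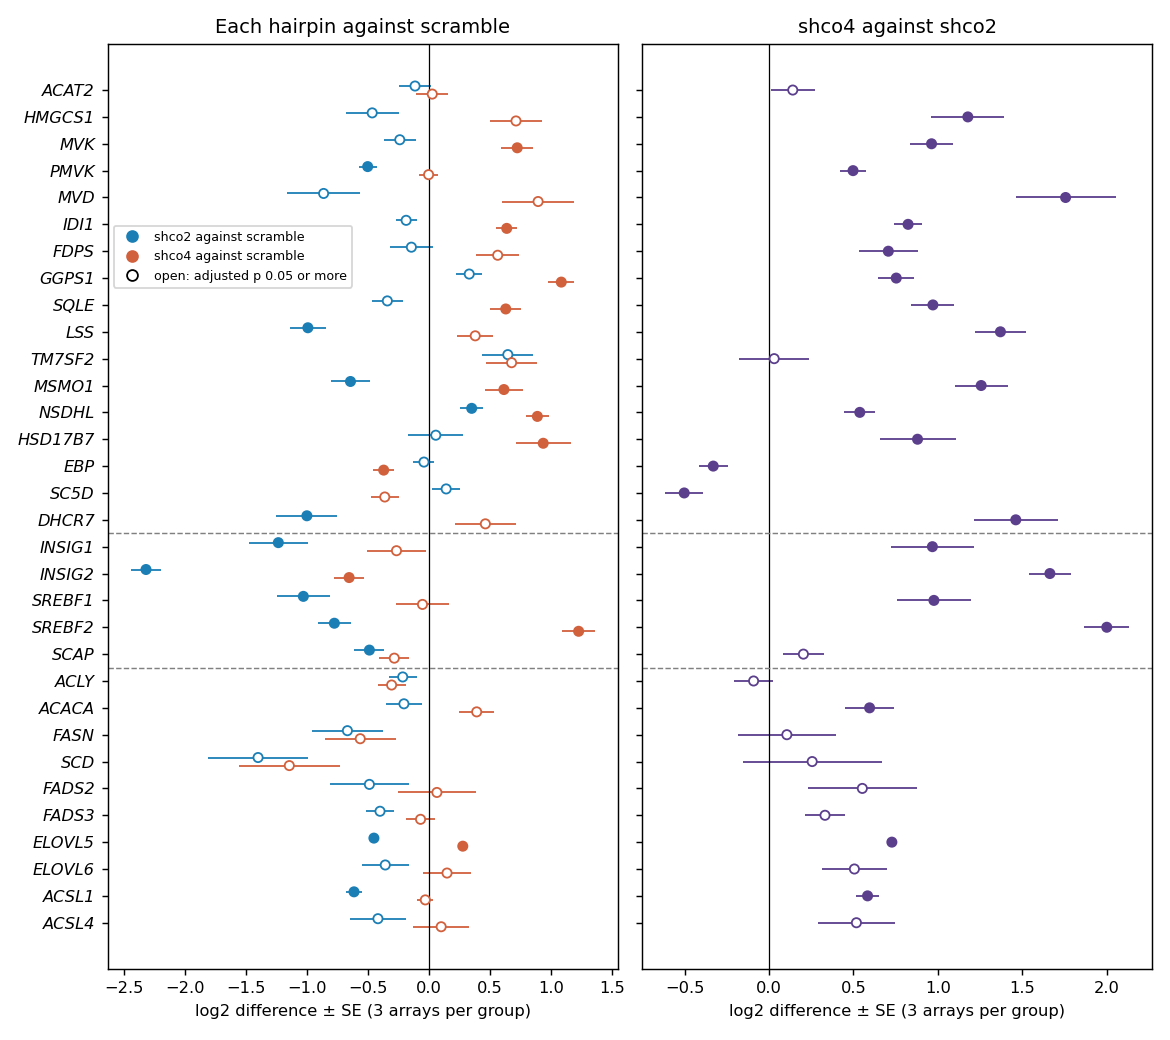
Log2 difference ± SE of each of the 32 members, with each hairpin against scramble on the left and shco4 against shco2 on the right (3 arrays per group). Filled points have a limma adjusted p under 0.05 and dashed lines part the sterol enzymes, regulators and fatty acid genes. On the right, 13 sterol enzymes, 4 regulators and 3 fatty acid genes have filled points above 0, and EBP and SC5D have filled points below it.

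The genes that set SREBP activity were lower with shco2: all 5 that were read fell, against 9.95% of probe sets and 1310 of 11963 genes. INSIG2, which retains SCAP in the endoplasmic reticulum (209566_at), had 913, 779 and 975 in scramble, 155, 175 and 205 with shco2 and 598, 523 and 567 with shco4. The 3 lines did not overlap, and shco2 was far below both others. INSIG2 fell 4.99-fold with shco2 (log2 -2.32 ± 0.12, adjusted p = 0.000212) and 1.58-fold with shco4 (log2 -0.66, adjusted p = 0.0146). The shco4 call was lost without scramble replicate 1 (adjusted p = 0.0509). INSIG1, the other retention protein and itself a known SREBP target (201627_s_at), had 2356, 1935 and 3489 in scramble, 905, 1174 and 1146 with shco2 and 1715, 2249 and 2361 with shco4. It fell 2.35-fold with shco2 (log2 -1.24 ± 0.24, adjusted p = 0.0146, but 0.051 without shco2 replicate 1). With shco4 its arrays overlapped with scramble (-0.27, adjusted p = 0.548). Its other 2 probe sets fell with shco2 by 1.45 and 1.12. Between the lines INSIG1 differed by 0.97 (adjusted p = 0.0242), a call that ended without shco2 replicate 1 (0.0785), 2 (0.0512) or 3 (0.0564), and likewise without shco4 replicate 2 (0.0744) or 3 (0.075).

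SREBF2, which encodes SREBP-2, had the largest difference between the hairpin lines of the 32 members. Its intensities (201247_at) were 382, 298 and 379 in scramble, 226, 214 and 178 with shco2 and 860.4, 853 and 749.7 with shco4. The 3 lines did not overlap, with shco2 lowest and shco4 highest. SREBF2 fell 1.71-fold with shco2 (log2 -0.78 ± 0.13, adjusted p = 0.00854), rose 2.34-fold with shco4 (log2 1.22, adjusted p = 0.00209) and was 4-fold higher with shco4 than with shco2 (adjusted p = 0.000149). Its second probe set had the same 3 calls at smaller sizes, -0.43, 0.72 and 1.15. SREBF1, which encodes SREBP-1 (202308_at), had 923, 859.6 and 1264 in scramble, 414, 498 and 568.5 with shco2 and 893, 818 and 1225.5 with shco4. Only shco2 stood apart, and SREBF1 fell 2.04-fold there (log2 -1.03 ± 0.22, adjusted p = 0.0188). That call was lost without scramble replicate 3 (0.051), shco2 replicate 1 (0.0618) or 2 (0.0555). With shco4 SREBF1 differed from scramble by -0.06 (adjusted p = 1), and the difference between the hairpin lines was 0.98 (adjusted p = 0.0153, 0.0516 without shco2 replicate 1).

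SCAP, the escort of the SREBPs (212329_at), had 861, 715 and 783 in scramble, 629, 499 and 555 with shco2 and 696, 564 and 677 with shco4. It fell by 0.49 ± 0.12 with shco2 (adjusted p = 0.0339), and with shco4 it differed from scramble by -0.29 (adjusted p = 0.171, and 0.00889 in the blocked fit). Between the lines SCAP differed by 0.20 (adjusted p = 0.292, and 0.012 in the blocked fit). The shco2 call was lost without scramble replicate 1 (0.0995) or 3 (0.0894), shco2 replicate 2 (0.096) or 3 (0.0933), and likewise without shco4 replicate 3 (0.0517), and with only the 6 arrays compared. The regulators called lower with shco2 numbered 3 without scramble replicate 3, and also without shco2 replicate 1 or 2. Those called higher with shco4 than with shco2 numbered 4 of 5, where 14.9% of probe sets were called higher, and 2 without shco2 replicate 1. With shco4 against scramble, 1 regulator rose and 1 fell, where 9.05% of probe sets were called higher and 9.75% lower.

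Of 10 fatty acid genes read, ELOVL5 rose and 0 fell with shco4 (9 had an adjusted p of 0.05 or more), where 9.05% of all probe sets were called higher and 9.75% lower. The median difference was 0.02, and that of the sterol enzymes 0.63. With shco2, ELOVL5 and ACSL1 fell and 0 rose, where 9.95% of probe sets were lower and 10.7% higher. All 10 differences with shco2 were negative, as were 5002 of the 11963 genes, and their median was -0.44. Between the lines ACACA, ELOVL5 and ACSL1 were higher with shco4 and 0 lower, against 14.9% and 16.1% of probe sets, with a median of 0.51. With 10 genes, these counts of calls lie within a few genes of the shares over all probe sets. The difference between the sets was not tested. In the blocked fit, 1 fatty acid gene, SCD, fell with shco4. The count of falls with shco2 was 4 in the blocked fit, and also 4 without shco4 replicate 3.

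**Figure D4:**
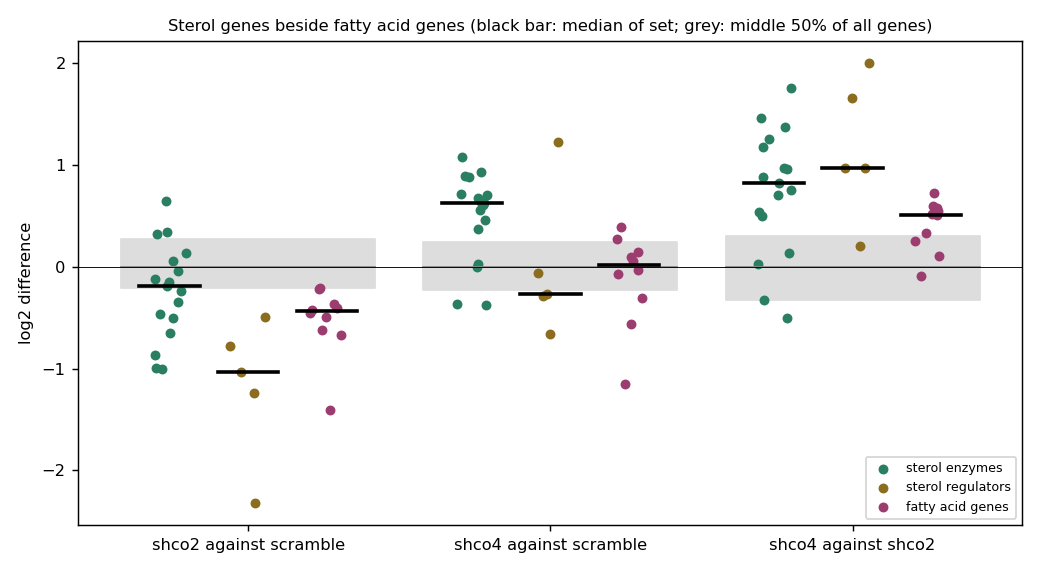
Log2 differences of the 17 sterol enzymes, 5 regulators and 10 fatty acid genes in each comparison. Each point is a gene, black bars are the medians of a set, and the grey band spans the middle 50% of all genes at their brightest probe set. With shco4 against scramble the median of the sterol enzymes (0.63) lies above the band and that of the fatty acid genes (0.02) inside it. With shco2 the median of the fatty acid genes (-0.44) lies below the band and that of the sterol enzymes (-0.19) inside it. For shco4 against shco2 both medians (0.51 and 0.82) lie above it.

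Fatty acid synthesis starts with ACLY, ACACA and FASN. ACACA, acetyl-CoA carboxylase (212186_at), had 899, 808 and 1086 in scramble, 739, 834 and 833 with shco2 and 1141.5, 1082 and 1434 with shco4. The shco4 arrays were above the shco2 arrays and overlapped with scramble, and ACACA was 1.51-fold higher with shco4 than with shco2 (log2 0.60 ± 0.14, adjusted p = 0.0214). That call was lost without shco2 replicate 1 (0.071), 2 (0.0511) or 3 (0.0518), and the dim second probe set had the reverse sign (-1.69, adjusted p = 0.0076). ACLY, which makes cytosolic acetyl-CoA from citrate, passed in 0 comparisons, with 5709 ± 927 in scramble, 4868 ± 121 with shco2 and 4570.4 ± 142 with shco4 (mean ± SD of 3 arrays). Without scramble replicate 2, the lowest scramble array at 4639.5, it passed as lower with shco2 (adjusted p = 0.00351) and with shco4 (0.00286). Its dimmest probe set was lower with shco4 than in scramble (-0.36, adjusted p = 0.0371) and than with shco2 (-0.40, adjusted p = 0.0159). FASN, the fatty acid synthase, had 1315, 1339.5 and 2017 in scramble, 1026, 895 and 961 with shco2 and 674, 1259.5 and 1293 with shco4. Every hairpin array lay below every scramble array, and scramble replicate 3 was the highest. FASN differed by -0.67 and -0.56 from scramble and did not pass (adjusted p = 0.176 and 0.257).

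SCD is the desaturase that makes monounsaturated fatty acids. Its brightest probe set (200832_s_at) read 2720.2, 2586 and 4835 in scramble, 955, 1287 and 1499.5 with shco2 and 903, 1484 and 2341 with shco4. Every hairpin array was below every scramble array, and within scramble replicate 3 stood well above the other 2. The differences of -1.40 ± 0.41 with shco2 and -1.15 ± 0.41 with shco4 did not pass (adjusted p = 0.0583 and 0.111). In the blocked fit both passed (adjusted p = 0.0125 with shco2 and 0.0228 with shco4). The shco2 difference also passed without shco4 replicate 1 (0.0383) or 3 (0.0418). Of the other 3 probe sets, 200831_s_at did not pass with either hairpin, 211708_s_at fell by 1.25 with shco2 and 1.26 with shco4 (adjusted p = 0.00352 and 0.00398), and 211162_x_at fell by 1.09 and 1.17. Between the lines SCD differed by 0.26 ± 0.41 (adjusted p = 0.767).

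Elongases and acyl-CoA synthetases extend and activate the chains. ELOVL5, an elongase of polyunsaturated fatty acids (208788_at), had 5559, 5438 and 5478 in scramble, 4052.5, 4050.1 and 3937 with shco2 and 6478, 6618 and 6849.6 with shco4. The 3 lines did not overlap and the replicates lay close together. ELOVL5 fell 1.37-fold with shco2 (log2 -0.45 ± 0.024, adjusted p = 0.000194), rose 1.21-fold with shco4 (log2 0.28, adjusted p = 0.000987) and was 1.66-fold higher with shco4 than with shco2 (adjusted p = 3.22e-05). A much dimmer probe set, 215082_at, rose with shco2 (1.30, adjusted p = 0.00536) and with shco4 (0.82), and 214153_at did not pass, so the shco2 direction depends on the probe set. ACSL1, an acyl-CoA synthetase (207275_s_at), had 456, 501 and 528 in scramble, 338, 329.6 and 300.5 with shco2 and 486, 471 and 493 with shco4. The shco2 arrays lay below all others, and ACSL1 fell 1.53-fold (log2 -0.62 ± 0.066, adjusted p = 0.00167), while with shco4 it differed by -0.03 (adjusted p = 0.88). Its second probe set had differences of -0.34 and 0.09 and did not pass.

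The other 4 fatty acid genes passed in 0 comparisons at their brightest probe set. FADS2, a desaturase, differed from scramble by -0.49 with shco2 and 0.06 with shco4, ELOVL6, an elongase of saturated chains, by -0.36 and 0.15, and ACSL4, a synthetase that favours arachidonate, by -0.42 and 0.10. FADS3, a relative of FADS2, differed by -0.40 (adjusted p = 0.0543, but 0.0496 without shco4 replicate 3 and 0.044 in the blocked fit) and -0.07. Between the lines ELOVL6 differed by 0.51 (adjusted p = 0.102, and 0.0195 in the blocked fit). The second probe sets of FADS3 and ELOVL6 passed as lower with shco2, at -0.46 (adjusted p = 0.00391) and -0.58 (adjusted p = 0.0123), and as higher with shco4 than with shco2, at 0.37 and 0.68.

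Other genes of lipid metabolism were counted from 6 lists by function. The shares of all probe sets to read these counts against are 10.7% higher and 9.95% lower with shco2, 9.05% and 9.75% with shco4, and 14.9% and 16.1% for shco4 against shco2, and several of the counts are near them. Of 8 genes of SREBP processing and sterol-regulated degradation, 1 rose and 1 fell with shco2, and 2 rose and 1 fell with shco4. Between the hairpin lines, 3 of the 8 were higher with shco4 and 1 lower. ERLIN2 and RNF139, which take part in the degradation of sterol pathway proteins, exceeded their shco2 level with shco4 by 1.28 and 0.80 (adjusted p = 0.000156 and 0.000113), and PAQR3, a Golgi anchor of SCAP, was lower (-1.23, adjusted p = 0.00123). Of 15 genes of sterol uptake, storage, transport and efflux, 1 rose and 5 fell with each hairpin, and 2 were higher and 2 lower with shco4 than with shco2. NPC2, which carries cholesterol out of lysosomes, was higher with shco4 than with shco2 (0.71, adjusted p = 4.26e-05), and the lipoprotein receptors SCARB1 (-0.68, adjusted p = 0.000363, but 0.101 with the mean of its probe sets) and LRP8 (-0.64, adjusted p = 0.0114) were lower. Of 11 genes that use isoprenoids, 3 rose and 0 fell with shco2, 2 rose and 1 fell with shco4, and 6 were lower and 2 higher with shco4 than with shco2. DHDDS, for dolichol (-0.75), RABGGTA (-0.79) and RABGGTB (-0.70), subunits of the enzyme that prenylates Rab proteins, were among the 6.

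Of 16 further genes of fatty acid supply and elongation, 0 rose and 3 fell with shco2 (10.7% and 9.95% of all probe sets), and 0 rose and 1 fell with shco4 (9.05% and 9.75%). Between the hairpin lines, 3 of the 16 were higher with shco4 and 1 lower (14.9% and 16.1%). FABP5, a fatty acid carrier, was lower with shco4 than with shco2 (-2.13, adjusted p = 0.00076), while ACSL5, a relative of ACSL1 (0.72), and HACD2, a dehydratase of elongation (0.41), were higher. Of 11 genes of glycerolipid synthesis and lipid droplets, 1 rose and 3 fell with shco2, and 0 rose and 3 fell with shco4. With shco4 against shco2, 1 of the 11 was higher and 2 lower. Between the lines LPIN2, a phosphatidate phosphatase, was higher with shco4 (0.89), and the acyltransferases AGPAT5 (-1.005) and AGPAT1 (-0.71) were lower. Of 17 genes of fatty acid oxidation, 2 rose and 1 fell with shco2, and 7 rose and 1 fell with shco4, with a median of 0.39 with shco4. With shco4 against shco2, 7 of the 17 were higher and 4 lower, with a median of 0.50. Here ETFB, an electron carrier of oxidation (1.86, adjusted p = 0.000461), and HADHA, of the mitochondrial trifunctional protein (0.73, adjusted p = 0.000902), were higher with shco4 than with shco2, and HADH, another dehydrogenase of the cycle (-0.62, adjusted p = 0.00113), was lower.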

How the data were processed

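Per the labels' protocols, 200 ng of total RNA per sample was labelled with an Affymetrix 3′ IVT kit. The deposited table holds linear intensity for 22277 probe sets on 9 arrays. The authors had scaled the intensity values: on each array the 2%-trimmed mean came to 500.1, as tested on the table. The software is not given in the sources used here. 62 control probe sets were left out, the rest were raised to a minimum of 16 and log2-transformed. Symbols were taken from the platform annotation and updated through RefSeq gene IDs. In R 4.3.3, limma 3.58.1 (lmFit, eBayes) fitted 1 mean per line to 22215 probe sets over the 9 arrays (prior degrees of freedom 0.53). Tests are two-sided, with Benjamini-Hochberg adjustment over all probe sets of a comparison and calls at an adjusted p under 0.05. The code of the fit was run on simulated data in which every array was drawn independently. This does not measure how reliable the calls are here, where same-numbered arrays vary together.

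The members and lists were chosen with earlier results of these data known, and no p-value was adjusted over a list alone. Values on every array are given for members called in any comparison and, chosen after their values were seen, for FASN and SCD, the others by mean or difference, and from each list of other pathway genes the 3 with the smallest p between the hairpin lines are named. To check replicate numbers, each array's deviation from its line's mean was correlated with that of the same-numbered array in another line, giving 0.133 to 0.235 for shco4 and scramble, 0.0571 to 0.29 for shco2 and scramble and 0.0576 to 0.213 for the hairpin lines. For shco4 against scramble every pair was above 0.1. In each of the 3 comparisons the same number correlated best in 6 of 6 cases, so the blocked value is printed where it changes a member's call. The alternatives were another floor, log2(value + 16), quantile normalization, median centring, a filter on dim probe sets (mean log2 under 6), a trended robust prior, only the arrays compared, the replicate block, the mean of all probe sets of a gene, and each array left out.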

Additional observations from a re-analysis of the deposited data

Results flagged for a closer look

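The effects of the 2 hairpins differed in direction for 3 members, each called against scramble with both hairpins and in opposite directions. The test of the difference itself is the comparison of shco4 with shco2. For SREBF2 it was 2.00 on the log2 scale, for MSMO1 1.26 and for ELOVL5 0.73. The ELOVL5 difference ended with the mean of all probe sets of the gene, and those of SREBF2 and MSMO1 passed under each alternative run. The calls of MSMO1 against scramble were less steady. With 1 array left out, its shco4 call was lost in 8 runs and its shco2 call in 6. Both were lost with only the 6 arrays compared. Neither SREBF2 call against scramble was lost in these runs. With the mean of its probe sets, ELOVL5 differed by 0.24 with shco2, the opposite direction. The causes were not tested.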

How the results depend on the processing

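Over 864 cases (32 members, 3 comparisons and 9 alternatives other than leaving out an array), 800 kept their direction and side of the threshold, 16 lost a call, 43 gained one and 5 turned. The 5 that turned came with the mean of all probe sets of a gene: SC5D (-0.67 with shco2, 0.44 between the hairpin lines), ACACA (0.37 and -0.55) and ELOVL5 (0.24 with shco2). The count of sterol enzymes higher with shco2 became 0 with log2(value + 16), quantile normalization, only the 6 arrays compared and the mean of probe sets, and 2 with median centring and without dim probe sets. Sterol enzymes lower with shco2 numbered 2 with only the 6 arrays compared. Fatty acid genes lower with shco2 numbered 4 with median centring, without dim probe sets and with the replicate block, and 1 was higher with the mean of probe sets. Without dim probe sets, 11 sterol enzymes were higher and 2 lower with shco4, 1 fatty acid gene was lower with shco4, and 5 were higher with shco4 than with shco2. Counts that stayed within 1.5 times of the main count are not listed, though their members could change. With shco4 the rises of MSMO1 and HSD17B7 were lost with only the 6 arrays compared, and that of MSMO1 with the replicate block. HMGCS1 gained a call with log2(value + 16), median centring, the block and the mean of probe sets. FDPS and TM7SF2 gained one with median centring, and FDPS and LSS with the block. With shco4, sterol enzymes lower numbered 0 with median centring, and fatty acid genes lower numbered 1 with the replicate block and 2 with the mean of probe sets. Between the hairpin lines, sterol enzymes lower numbered 1 with median centring, with only the 6 arrays compared and with the mean of probe sets, which also gave 2 fatty acid genes lower. Filtering tests fewer probe sets, and using 6 arrays uses fewer samples. The other causes were not tested. With each array left out, sterol enzymes higher and lower numbered 0 to 1 and 2 to 5 with shco2, 4 to 8 and 0 to 1 with shco4, and 11 to 13 and 0 to 2 between the lines. Fatty acid genes numbered 0 higher and 2 to 4 lower with shco2, 1 higher and 0 to 1 lower with shco4, and 2 to 3 higher and 0 lower between the lines. All probe sets called numbered 3258 to 4602, 2760 to 3938 and 5715 to 6691, against 4589, 4178 and 6881. With the replicate block, the numbers called were 5345, 4913 and 7581. In 18 of 18 cases an array's deviation correlated best with the same number's array of another line, a hint from the data and not from the design. Of 648 counts for the lists of other genes, recomputed after seeing the data, 561 stayed within 1.5 times, 56 were lower and 31 higher. 3 arrays per line limit the precision, and MVD and the second probe sets of SC5D, ACACA and ELOVL5 are dim.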

Other observations

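Between replicates of a line, the lowest and highest arrays for the members were counted, with no share over all genes computed beside them. Scramble replicate 2 was the lowest of its 3 arrays for 14 of 17 sterol enzymes, 5 of 5 regulators and 5 of 10 fatty acid genes (replicate 1 for 4 of these 10). Scramble replicate 3 was the highest for 11, 3 and 7. The median deviation of the sterol enzymes from the line's mean was -0.21 on scramble replicate 2 and 0.16 on replicate 3. In the shco4 line, replicate 1 was the lowest for 12 of 17 sterol enzymes and 7 of 10 fatty acid genes but the highest for 3 of 5 regulators, and replicate 3 was the highest for 11 sterol enzymes and 7 fatty acid genes. In the shco2 line, 8, 6 and 3 sterol enzymes were lowest on replicates 1, 2 and 3. Taken within 1 replicate number at a time, the median difference of the sterol enzymes between shco4 and scramble was 0.50, 0.87 and 0.52. In all 3 numbers 13 of 17 were higher and 2 lower, again with no share over all genes computed. For shco2 against scramble those medians were -0.25, 0.02 and -0.36, and between the hairpin lines 0.74, 0.74 and 0.89.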
